A study of Mus musculus with 24 samples.

Results

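N6-methyladenosine (m6A) peaks that were called in every animal of the series were examined across mouse hippocampal messenger RNA. The members were selected on measured values. Peaks of the 12 animals' lists with the same chromosome, start and end were collapsed, those sharing 1 base or more were joined, and a joined peak was kept where all 12 lists contributed. This gave 806 shared peaks of 13683 merged peaks (5.89%). The largest class, 5194 merged peaks, was found in 1 animal, and 471 merged peaks were found in 11 animals.

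The series measured poly(A) RNA of the hippocampus by m6A immunoprecipitation and sequencing (MeRIP-seq), in which an anti-m6A antibody enriches methylated RNA (IP) and a share of the same RNA is kept as input. The animals form 3 groups of 4 mice. The first group was wild-type and had no treatment, and the other two carried the 5xFAD transgenes and received either vehicle or MS1262. The wild-type mice were age-matched, and the labels used here give neither the age nor the dose and length of dosing. The 5xFAD line is a model of inherited Alzheimer's disease whose mutated human transgenes are driven by the Thy1 promoter in neurons, and MS1262 is an inhibitor of the histone methyltransferase G9a by the series title. Since the wild-type mice received no treatment, genotype and vehicle dosing cannot be told apart in comparisons with them. Each animal gave 1 input and 1 IP library, which makes 24 libraries.

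In messenger RNA, m6A is placed by a writer complex with the catalytic subunit Mettl3 and its partner Mettl14, mostly at an adenosine followed by cytosine in motifs such as GGACT. It is removed by the erasers Fto and Alkbh5 and bound by reader proteins of the Ythdf and Ythdc families, which affect the decay, translation and splicing of the RNA. The mark is abundant in brain, and it is known to be frequent near stop codons and in long internal exons.

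The sequence under a shared peak could be read where the peak overlapped a promoter window of the RefSeq table (GRCm38.p6; 250 bases before to 50 after an annotated start, also of a neighbouring or antisense gene). Of the 806 shared peaks, 44 overlapped 49 such windows and 7 had their strongest summit inside one. The stretches printed next come from 4 of these 7, each with a known host strand. Only the part of a window inside the peak was searched. The GGACT nearest to the summit is shown, or the nearest GGAC where that part held no GGACT. The stretches are on the strand of the host gene, 5′ to 3′, with the m6A motif GGAC or GGACT in capitals.
Pygb peak 53 at chr2:150786974-150787002 (+): tgcatttcacgctggtcaaGGACcgcaat
Ywhag peak 73 at chr5:135934388-135934416 (-): tgtgaagatggtGGACcgcgagcaactgg
Mlst8 peak 395 at chr17:24473716-24473744 (-): tagtttgtctctGGACTcttggcctgtgc
Ckmt1 peak 652 at chr2:121358877-121358905 (+): tctgcccgccctGGACTcaggctcctggc
The number after a gene's name is the rank of the peak by its median fold enrichment over the 12 animals. The motif lay 24 bases from the strongest summit in Pygb, 17 bases in Ywhag, 167 bases in Mlst8 and 60 bases in Ckmt1. These genes encode the brain form of glycogen phosphorylase (Pygb), a 14-3-3 adaptor protein (Ywhag), a subunit of mTOR complexes (Mlst8) and a mitochondrial creatine kinase (Ckmt1). A motif match is a description of these letters and not a mapped m6A site. On either strand, GGAC was in 48 of the 49 windows that overlapped a shared peak (98.0%) and in 87.7% of all 32851 windows of 300 bases. GGACT, which contains GGAC, was in 25 of the 49 (51.0%) and in 45.5% of all windows, and AGACT was in 22 (44.9%) and in 45.9% of all. These counts are over whole windows, of which a median of 50 bases (2 to 300) lay inside the peak. Within the part inside the peak, GGAC was found in 27 of the 49 windows, GGACT in 9 and AGACT in 10.

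Fold enrichment is the height of the IP signal over the local background as the authors' peak caller gave it, for the strongest subpeak of each animal. The values of this and of the pileup, the height of the stacked IP tags, are given as descriptions without a test, because the calls they rest on chose the members. Over the 806 peaks the median of the median folds was 2.68, with a range of 1.43 to 8.14. A median fold of at least 2 was reached by 687 peaks and of at least 4 by 100. In all 12 animals the fold was at least 2 in 328 peaks and at least 4 in 14. Shared peaks had a median length of 1239 bases (247 to 7318), against 400 bases for all merged peaks and 298 bases for those found in 1 animal. They took up 1207 of 7692 kb of merged sequence (15.7%). A merged peak spans every call joined in it, so the rule itself tends to make peaks joined from 12 lists longer. The calls of single animals had median lengths of 365 to 391 bases.

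Per animal, the median fold over the shared peaks was 2.57, 2.36, 2.91 and 2.61 in wild-type mice 1 to 4. It was 2.84, 2.66, 2.61 and 2.84 in vehicle mice and 2.22, 2.82, 2.85 and 2.80 in MS1262 mice. The means were 2.61 ± 0.224 for the wild-type group, 2.74 ± 0.120 for the vehicle group and 2.67 ± 0.301 for the MS1262 group (SD, n = 4 each), and the ranges of the 3 groups overlapped. MS1262 mouse 1 had the lowest median, and it held the lowest fold of the 12 animals in 217 of the 806 peaks. Vehicle mouse 4 held the highest fold in 217 peaks and wild-type mouse 3 in 192.

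**Figure D1:**
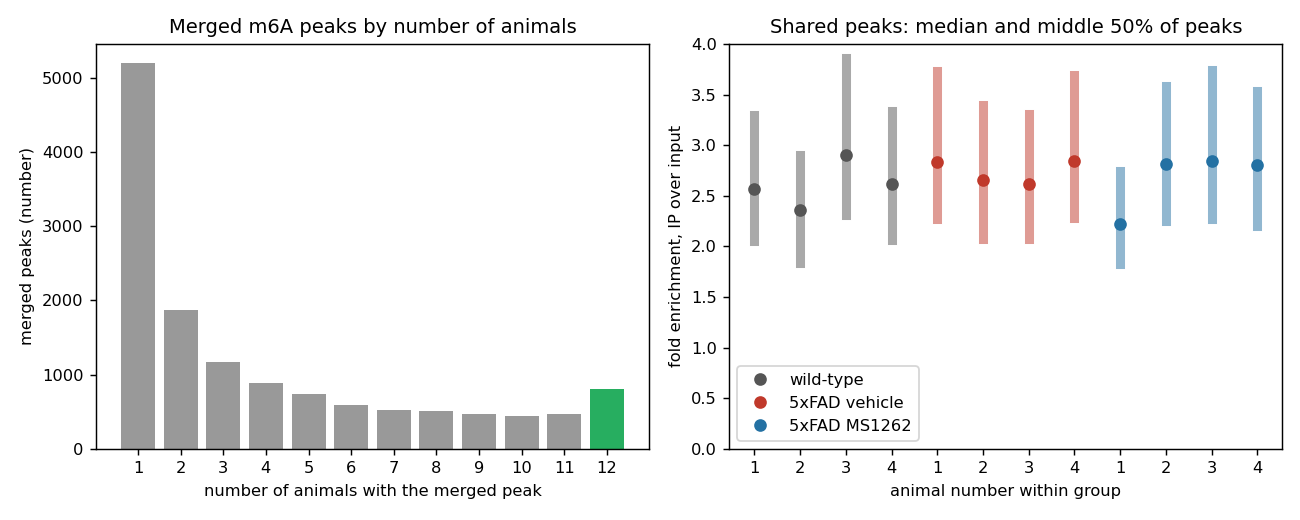
Left, the number of merged peaks (y) by the number of animals in which they were found (x), with the 806 peaks found in all 12 in green. Right, the median (point) and the middle 50% of peaks (bar) of the fold enrichment of the shared peaks in each animal. The medians lie between 2.22 in MS1262 mouse 1 and 2.91 in wild-type mouse 3, and the groups overlap.

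Depth differed between the IP libraries. After the caller's limit on duplicates, 5.48 to 30.1 M IP tags and 12.5 to 23.3 M input tags remained per animal, and the gene tables held 3.98 to 48.6 M counts per library. Vehicle mouse 4 stood apart, with the fewest IP tags, the most peaks (6591, against 3534 to 6404 in the others) and 2086 peaks found in no other animal. It was the missing animal in 174 of the 471 peaks found in 11 animals, and without it 979 peaks were shared by the remaining 11. Vehicle mouse 3 had a much higher summed level of choroid plexus markers in its input (7610 TPM, a level per transcript length and library size, against at most 836 in the other 11) and 0.54 log2 CPM (counts scaled to library size) of Xist, the transcript of the inactive X chromosome, against at least 4.56 in the others. Without vehicle mouse 3, 823 peaks were shared.

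At the edge of the rule, 3 shared peaks had the weakest support in any animal. Zfand2a peak 355 had a −log10 q of 0.307 in vehicle mouse 4, Mast2 peak 680 of 0.313 in wild-type mouse 3 and Maea peak 707 of 0.323 in MS1262 mouse 1, with median folds of 2.77, 2.01 and 1.92. In 74 shared peaks the weakest animal was short of q 0.05. Just outside the rule, the peaks with the highest median fold among those found in 11 animals lay in Tcaf1 (4.91, not called in vehicle mouse 4), Nsf (4.52, not called in wild-type mouse 2) and the pseudogene Rab11b-ps2 (4.49, not called in wild-type mouse 1). Nsf encodes the ATPase that takes apart SNARE complexes after vesicle fusion.

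The 10 shared peaks with the highest median fold lay in 7 genes. Sptan1 peak 1 (chr2:30013293-30014010, mm10), in the gene of the non-erythrocytic alpha spectrin that lines the axonal membrane, had folds of 8.03, 5.60, 8.88 and 8.85 in wild-type, 8.73, 7.97, 9.42 and 3.69 in vehicle and 6.19, 7.70, 9.86 and 8.26 in MS1262 mice. Only vehicle mouse 4 was below 5, and the groups overlapped. Its group means were 7.84 ± 1.55, 7.45 ± 2.58 and 8.002 ± 1.52 (SD, n = 4).

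Gng7 peak 2 (chr10:80948665-80951874), in the gene of a G protein gamma subunit, had folds of 9.75, 7.89, 6.55 and 8.01 in wild-type, 8.14, 8.81, 8.67 and 7.77 in vehicle and 6.81, 8.17, 8.90 and 6.88 in MS1262 mice. No animal stood apart in this peak, which spanned 3210 bases near the 3′ end of the gene, with its summit 2.90 kb before that end. Kif5a peak 7 (chr10:127243221-127243921), in the gene of a neuronal kinesin heavy chain, had folds of 6.69, 6.13, 8.48 and 6.30 in wild-type, 7.08, 6.92, 6.87 and 8.72 in vehicle and 8.32, 6.49, 6.82 and 7.5 in MS1262 mice. All 12 values of Kif5a peak 7 were above 6.

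The other peaks among the 10 with the highest median fold were 2 further peaks of Sptan1 (7.75 and 6.38), 2 of Scd2 (7.22 and 7.09), and 1 each of Tppp (7.07), Ndrg4 (6.50) and Map4 (6.31). Scd2 encodes a stearoyl-CoA desaturase, which makes monounsaturated fatty acids, Tppp a tubulin-binding protein of oligodendrocytes, and Map4 a microtubule-associated protein. These peaks varied more between animals than those of Gng7 and Kif5a. Scd2 peak 4 ranged from 2.46 in MS1262 mouse 1 to 8.33 in MS1262 mouse 3. In 4 of the 10 peaks vehicle mouse 4 had the lowest fold.

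**Figure D2:**
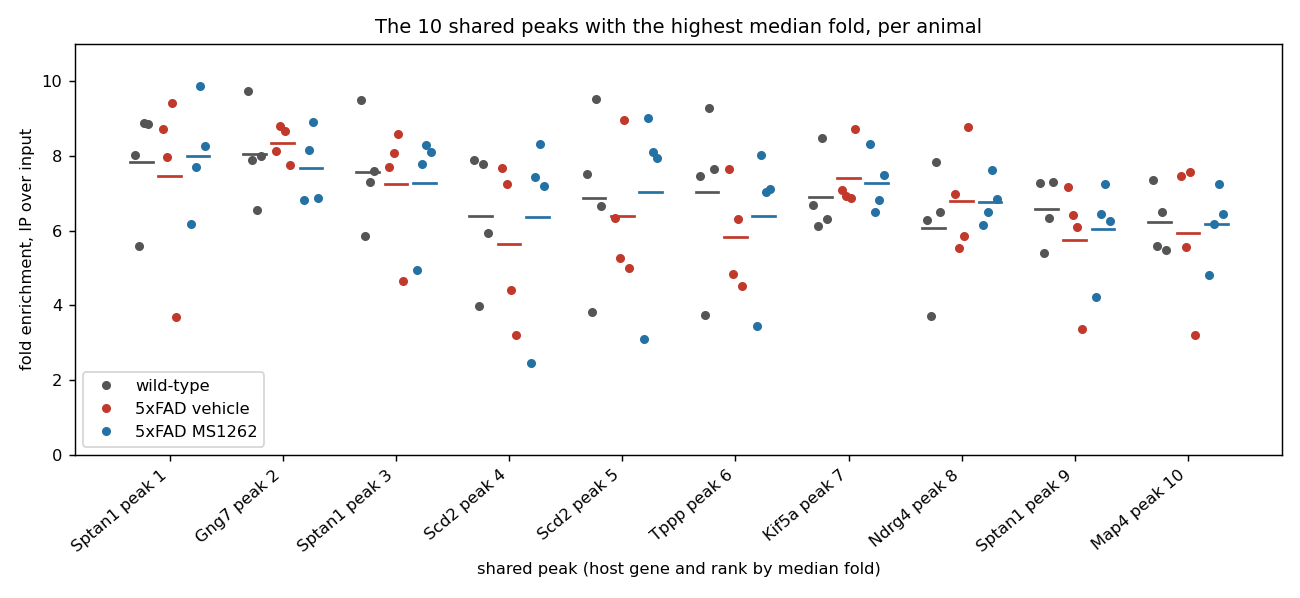
Fold enrichment (y) of the 10 shared peaks with the highest median fold (x), 1 point per animal, coloured by group, with the group mean as a bar (n = 4). The groups overlap in each of the 10 peaks, and single animals lie low, such as vehicle mouse 4 at 3.69 in Sptan1 peak 1.

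Bcl2l1, which encodes the anti-apoptotic protein Bcl-xL, held 2 shared peaks. Bcl2l1 peak 19 (chr2:152780688-152782399) had folds of 5.24, 5.83, 6.25 and 5.87 in wild-type, 6.08, 5.62, 6.37 and 4.85 in vehicle and 5.78, 6.74, 6.82 and 5.88 in MS1262 mice. Bcl2l1 peak 27 (chr2:152829317-152830119), 4.06 kb from the 5′ end of the gene, had folds of 4.89, 4.98, 4.81 and 5.20 in wild-type, 5.34, 5.65, 5.60 and 9.33 in vehicle and 5.04, 6.29, 5.53 and 6.30 in MS1262 mice. The value of 9.33 in vehicle mouse 4 lay far above the other 11. By these folds, which are not adjusted for each animal's median, vehicle mice (5.34 to 9.33) lay above wild-type mice (4.81 to 5.20) in peak 27. MS1262 mice overlapped both of these groups. In peak 19 the groups overlapped.

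At the low end, the peaks of Ogdh (1.43), Pafah1b2 (1.43), Eif4g2 (1.44), Gja1 (1.44) and Pea15a (1.46) had the lowest median folds. Gja1 encodes connexin 43, the gap junction protein of astrocytes. Ogdh peak 806 was at 1.23 to 1.76 in 9 animals and at 3.15, 3.75 and 3.58 in wild-type mice 1 and 3 and vehicle mouse 4. Among the 5 highest median pileups were those of Mbp (959 tags), Syt11 (785) and Actb (748), whose median folds were 2.28 or below. Across the peaks the log2 median pileup went with the log2 input level of the host gene (Pearson r = 0.52 over 801 peaks). The log2 median fold did not rise with it (r = −0.08). These correlations describe peaks that share libraries, and carry no test.

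The Pearson correlation of log2 fold between 2 animals had a median of 0.70 over 66 pairs (0.42 to 0.87). It was 0.72 within groups and 0.69 between groups. The SD of the mean log2 fold over peaks was 0.44, and the median SD of 1 peak over the 12 animals, after each animal was centred on its own median, was 0.26. The most even peak by this measure was in Ip6k1, an inositol hexakisphosphate kinase, with folds of 4.18, 4.02, 4.21 and 3.95 in wild-type, 4.22, 4.31, 4.74 and 4.48 in vehicle and 3.62, 4.43, 5.07 and 4.6 in MS1262 mice. Ddb1, Bhlhe40 and Kcnip3 held 3 more of the 5 most even peaks, with SDs of 0.10 to 0.12.

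The 5 most uneven peaks lay in Camk2a, Ncdn, Pde2a, Cs and Ogdh, with SDs of 0.59 to 0.66. Camk2a encodes the alpha subunit of the calcium/calmodulin kinase of excitatory synapses. Camk2a peak 157 had folds of 1.44, 1.61, 5.18 and 1.31 in wild-type, 2.77, 3.48, 3.53 and 5.11 in vehicle and 3.36, 4.14, 4.64 and 4.53 in MS1262 mice. Wild-type mouse 3 lay with the 5xFAD mice in this peak, and the other 3 wild-type mice lay below all of them. The other 4 shared peaks of Camk2a had median folds of 1.92 to 2.69.

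The strongest summits of the 12 animals spread over a median of 509 bases in the 806 shared peaks, and over 200 bases or less in 195 of them (24.2%). A spread cannot exceed the length of its peak. In Sptan1 peak 1 they spread over 24 bases and in Kif5a peak 7 over 20 bases. In the long Gng7 peak 2, with a median of 7 subpeaks per animal, they spread over 705 bases.

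Of the shared peaks 801 lay in an annotated gene with input reads, 798 of them in protein-coding genes and 3 in long noncoding RNAs. The 3 were Peg13 (median fold 5.53), Rian (2.13) and 4933431E20Rik (2.61). Peg13 and Rian are imprinted noncoding RNAs of brain. Where genes overlapped, the one with the highest input level was taken as host, and 26 shared peaks overlapped more than 1 gene of at least 1 TPM. The library type does not record strand, so reads of overlapping genes cannot be told apart in those 26. The hosts of 2 peaks, Il31ra and Cercam, were below 1 TPM in input.

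The 801 peaks lay in 529 genes, of which 400 held 1 shared peak, 129 held 2 or more and 18 held at least 5. Kif5a held 12. Acly, which makes cytosolic acetyl-CoA from citrate, Pygb and Sptan1 held 9 each, and Ddb1, an adaptor of Cul4 ubiquitin ligases, held 8. Peaks of 1 gene come from the same transcripts and are not independent. In the 129 genes the highest median fold was a median of 1.38 times the lowest, and at least 2 times the lowest in 25. The widest ratio was 4.13, in Scd2.

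In Sptan1 the 9 peaks began 30.6 kb from the 5′ end, and the 4 farthest from it, at 42.5 to 50.3 kb, had the highest median folds (5.56 to 8.14, against 2.26 to 3.91 in the other 5). Pygb had its highest fold, 4.76, at the peak 0.173 kb from the 5′ end, the one whose sequence is printed above, and its lowest, 1.74, at the peak nearest the 3′ end. In Acly the 9 peaks, spread from 4.545 to 45.6 kb, had median folds of 2.37 to 3.57, a narrower range than in the other 2 genes.

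**Figure D3:**
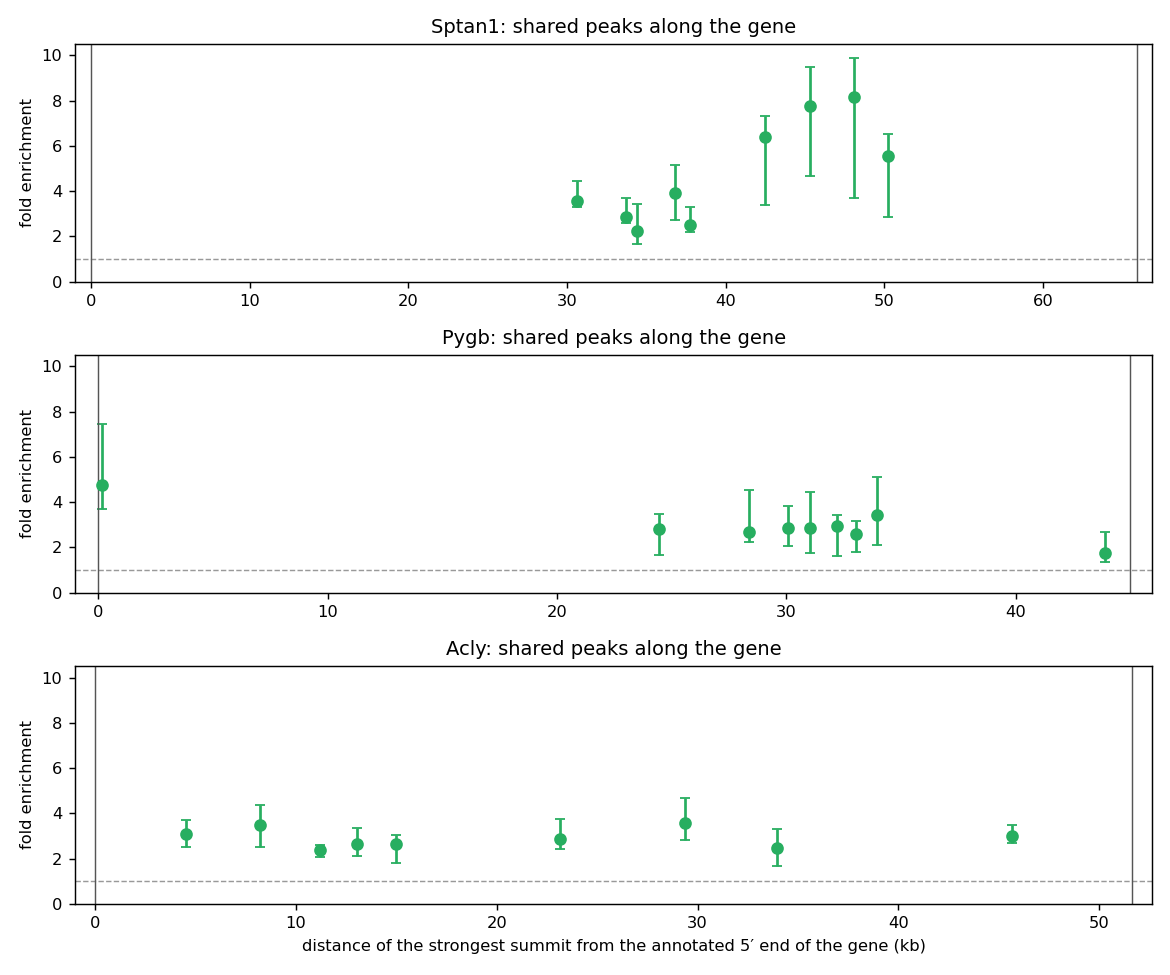
Median fold enrichment over 12 animals (point) and lowest and highest animal (bar) of the shared peaks of Sptan1, Pygb and Acly, by distance of the strongest summit from the annotated 5′ end of the gene in kb. Grey vertical lines are the gene ends and the dashed line is a fold of 1. Sptan1 has its highest folds between 42.5 and 50.3 kb, Pygb at 0.173 kb, and Acly has no peak above 3.57.

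Position in the gene, which the rule did not use, was read from the strongest summit where the reference gave a strand (606 peaks). The last 25% of the annotated gene held 352 summits (58.1%), against 57.8% over all merged peaks and 58.3% over those found in 1 animal. The first 25% held 75 (12.4%, against 12.1% over all). Within 1 kb of the annotated 3′ end lay 55 summits (9.08%), against 21.9% over all merged peaks and 24.9% over those found in 1 animal. Within 5 kb the shares were 59.1% and 57.7% over all merged peaks. The shared peaks had fewer summits in the last 1 kb and a like share in the last 5 kb. Shared peaks, each joined from 12 lists, were also longer than the other merged peaks, and the part of length in this difference was not tested. Exons and coding parts were not used here, since the reference table held gene bodies only.

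**Figure D4:**
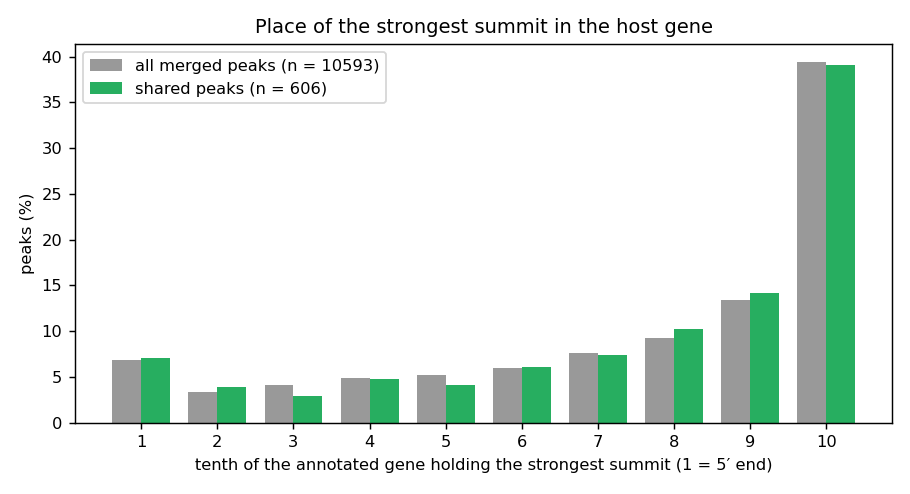
Share of peaks in percent (y) by the stretch of 10% of the annotated gene that holds the strongest summit (x, 1 is the 5′ end), for the 606 shared peaks with a host strand in green and all 10593 merged peaks with one in grey. Both sets rise towards the 3′ end, with 39.1% of shared peaks and 39.4% of all merged peaks in the last 10%.

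The median fold of the shared peaks was 2.89 for the first 25% of the gene, 2.84 and 2.80 for the 2 stretches of 25% that follow and 2.55 for the last 25% (75, 64, 115 and 352 peaks). The median length of the peaks rose from 662 bases in the first of these to 1790.5 in the last.

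The host genes were well expressed. Their median input level was 23.5 TPM. This was not particular to shared peaks. Counted per peak, the median host level was 28.2 TPM for shared peaks, 25.2 for all merged peaks and 27.4 for those found in 1 animal. Of protein-coding genes below 1 TPM 0.0204% held a shared peak, of those from 1 to 10 TPM 1.64%, from 10 to 50 TPM 7.63%, from 50 to 200 TPM 9.04%, and of at least 200 TPM 4.52%. Over all 11550 protein-coding genes of at least 1 TPM the share was 4.54%.

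Gene groups were described by how many of their expressed members held a shared peak. Among cytoskeleton and kinesin genes 14 of 36 did (38.9%, with 41 peaks), led by Sptan1, Kif5a, Map4 and Tubb4a, and including Map2, Mapt and Ank2. Among presynaptic genes 12 of 34 did (35.3%), among them Dnm1, the dynamin of vesicle endocytosis, Sv2b and Stx1a. The median levels of these 2 groups, 50.2 and 27.6 TPM, were above the 9.14 TPM of all expressed protein-coding genes. Their part in these shares was not tested.

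In the other groups the share was 20.0% or less. Synaptic scaffolds had 4 of 28 (Baiap2, Dlgap4, Iqsec3 and Dlgap1), potassium channels 4 of 29, ubiquitin ligases 4 of 27 and glutamate receptor genes 2 of 18 (Cacng3, an auxiliary subunit of AMPA-type receptors, and Gria1). Of astrocyte markers 3 of 15 held a shared peak (Gfap, Fgfr3 and Gja1), of myelin genes 3 of 15 (Cnp, Mbp and Mobp) and of microglial markers 3 of 19 (Ctsd, Cx3cr1 and P2ry13). No shared peak lay in 77 ribosomal protein genes, 32 oxidative phosphorylation genes, 26 axon guidance genes, 18 GABA genes or 18 sodium and calcium channel genes. The ribosomal protein genes had a median of 271 TPM. Of chromatin and transcription regulators 1 of 42 held a shared peak (Hdac4, a histone deacetylase), of clustered protocadherins 1 of 23 (Pcdhgc4), of other protocadherins and cadherin receptors 1 of 16 (Pcdh20), of immediate early genes 1 of 14 (Btg2), and of endothelial and mural markers 1 of 7 (Vtn).

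Of the m6A machinery 2 of 20 expressed genes held a shared peak, the eraser Fto and the reader Hnrnpa2b1. Fto peak 518, 27.1% along the gene from its 5′ end, had folds of 2.02, 1.82, 4.13 and 3.02 in wild-type, 2.40, 1.98, 2.05 and 2.47 in vehicle and 1.53, 3.57, 2.62 and 2.99 in MS1262 mice. Wild-type mouse 3 was highest, and the groups overlapped. Fto peak 719, 1.76 kb before the 3′ end, had a median fold of 1.89. Among Alzheimer's disease genes 2 of 24 held a shared peak, Ptk2b and Mapt, which encodes tau. Mapt peak 247 had folds of 3.36, 2.43, 3.77 and 3.13 in wild-type, 3.14, 2.56, 3.21 and 2.75 in vehicle and 1.76, 2.94, 3.03 and 3.18 in MS1262 mice, with all groups overlapping. App, Apoe, Clu, Bace1, Trem2, Mettl3, Mettl14, Alkbh5, Ehmt1 and Ehmt2 held none.

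At the level of whole genes, IP was compared with input over all 12 animals with edgeR's quasi-likelihood test. One of the 529 host genes, Il31ra, did not pass the low-count filter. Of 528 host genes tested 480 were higher in IP and 14 lower, with a median log2 difference of 0.70, against 28.2% higher and 27.7% lower of all 18300 genes and a median of 0.00. This is the contrast that called the peaks, so nothing is read from it.

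Group differences in expression were tested on the input libraries of the host genes. These libraries were the background of each animal's peak call and decided between overlapping hosts, and the rule made no contrast between groups. In vehicle-treated 5xFAD against wild-type mice 11 of 528 hosts rose (2.08%) and none fell at an adjusted p below 0.05 (edgeR, over all 17693 genes tested). Of all genes 1.06% rose and 0.514% fell. The median log2 change of the hosts was 0.09, against 0.01 over all genes. Of the 528 hosts 75 (14.2%) had an unadjusted edgeR p below 0.05, against 12.8% of all genes. DESeq2 called 17 hosts higher (3.22%) and 1 lower (0.189%), beside 2.32% and 1.16% of the genes to which it gave an adjusted p.

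Ctsd, the lysosomal protease cathepsin D, held 2 shared peaks. Its input level was 185, 253, 183 and 188 CPM in wild-type, 483, 714, 384 and 583 in vehicle and 497, 575, 429 and 491 in MS1262 mice. All vehicle mice were above all wild-type mice. The fold was 2.69 in vehicle against wild-type mice (log2 1.43 ± 0.17 SE, edgeR adjusted p = 0.00079). The 2 peaks of Ctsd had folds of 1.53 to 7.51 and of 1.66 to 4.24 over the 12 animals, with overlapping groups.

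Gfap, the intermediate filament of astrocytes, was at 126, 73.2, 42.2 and 68.4 CPM in wild-type, 150, 253, 116 and 366 in vehicle and 216, 287, 167 and 185 in MS1262 mice. Wild-type mouse 1 lay above vehicle mouse 3. The fold was 2.87 (log2 1.52 ± 0.35 SE, edgeR adjusted p = 0.045). Cx3cr1, the fractalkine receptor of microglia, rose from 15.7 ± 1.5 to 31.4 ± 8.19 CPM (SD, n = 4) without overlap, by a fold of 2.01 (edgeR adjusted p = 0.0078). Laptm5, a lysosomal membrane protein of immune cells, rose 2.64-fold with overlap, Msn, which links actin to the membrane, 2.08-fold and Ctsa, the lysosomal cathepsin A, 1.73-fold, both without overlap. The remaining 5 called hosts, named after their values were seen, were Prelp, Igfbp5, Ctsb, Helz and Ntrk2.

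Of 19 microglial marker genes 10 rose and none fell in vehicle against wild-type mice, with a median log2 change of 1.20 against 0.01 over all genes. The summed level of 6 defining microglial markers was 159 to 190.0 TPM in wild-type, 164 to 312 in vehicle and 229 to 273 in MS1262 mice, and none of the 6 was at 0. In bulk tissue more cells of a type and more RNA per cell cannot be told apart. The part of the markers in the host genes' change was not tested. Of 15 astrocyte genes 2 rose (Gfap and Apoe), and the summed level of 7 defining astrocyte markers overlapped between groups (2601 to 3218 TPM in wild-type, 2551 to 3408 in vehicle, 2761 to 3255 in MS1262 mice). The summed level of 5 markers of inhibitory neurons was 484 to 599 TPM in wild-type, 366 to 447 in vehicle and 337 to 434 in MS1262 mice, so that both 5xFAD groups lay below the wild-type group, and none of the 5 was at 0. By edgeR only 1 of the 5, Sst, was called lower, in both comparisons with wild-type mice. The median log2 change of the 5 was −0.10 in vehicle and −0.15 in MS1262 mice. The 5 choroid plexus markers had a median log2 change of 2.31 in vehicle against wild-type mice, with none called. Their summed level had a near-equal median in the 2 groups, 74.1 TPM in wild-type and 80.1 in vehicle mice. Vehicle mouse 3 stood apart at 7610 TPM. The part of these markers in the comparisons with wild-type mice was not tested.

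The number of called hosts depended on single animals. It was 2 without wild-type mouse 4, 5 without wild-type mouse 3 or vehicle mouse 2, 7 without vehicle mouse 1, 7 without vehicle mouse 4 (5 higher and 2 lower), and 8 to 12 without each of the others. Ctsd and Cx3cr1 stayed called without each animal, Ctsa without each but wild-type mouse 4, and the calls were lost in 4 of 8 such fits for Msn, 5 for Laptm5 and 6 for Gfap. By limma on the log2(TPM + 1) and log2(TPM + 0.1) scales Ctsd and Laptm5 stayed called, and Gfap, Msn, Ctsa and Cx3cr1 (adjusted p = 0.061 and 0.054) were not.

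Between MS1262-treated and vehicle-treated 5xFAD mice no host gene was called by edgeR or by DESeq2, and 11 of 528 (2.08%) had an unadjusted p below 0.05, against 5.67% of all genes. Of all genes 0.0% rose and 0.0% fell. The median log2 change of the hosts was −0.03. The smallest p values among the hosts belonged to Timp3, an inhibitor of matrix metalloproteases (log2 −0.47 ± 0.15 SE), Fam131a (0.26 ± 0.08), Vtn, the adhesion protein vitronectin (−0.91 ± 0.30), Agt, the angiotensin precursor made by astrocytes (−0.81 ± 0.30), and Ehd3, an endocytic ATPase (0.27 ± 0.10), all at an edgeR adjusted p of 0.85. Vtn was at 31.5, 21.5, 36.3 and 33.4 CPM in vehicle and 23.7, 17.3, 9.81 and 14.9 in MS1262 mice, which overlapped at 1 animal. Without vehicle mouse 3, the animal with the high choroid plexus markers, the log2 change of Agt was −0.49. In this comparison the 5 choroid plexus markers had a median log2 change of −3.22 and the 12 endothelial and mural markers of −0.42, against −0.01 over all genes, with none of them called. Their part in the values of these hosts was not tested.

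MS1262-treated 5xFAD against wild-type mice shares the wild-type libraries with the first comparison. In it 8 of 528 hosts rose (1.52%) and none fell, beside 0.91% and 0.39% of all genes. DESeq2 called 19 higher (3.60%) and 2 lower (0.379%), beside 2.35% and 1.6% of the genes to which it gave an adjusted p. The 6 largest were Ctsd (fold 2.46, edgeR adjusted p = 0.0015), Laptm5 (2.36, adjusted p = 0.049), Cx3cr1 (1.94, adjusted p = 0.011), Igfbp5 (1.67, adjusted p = 0.014), Helz (1.61, adjusted p = 0.017) and Ctsa (1.58, adjusted p = 0.034), each without overlap of the groups. Igfbp5 encodes a binding protein of insulin-like growth factors and Helz an RNA helicase. Acly and Ctsb were the other 2, named after their values were seen. Gfap had a log2 change of 1.46 ± 0.35 and an adjusted p of 0.058. The count was 6 without wild-type mouse 1 or 2, 4 without wild-type mouse 3 or 4 or MS1262 mouse 1, 2 or 4, and 3 without MS1262 mouse 3. Ctsd and Cx3cr1 stayed called without each animal. The call of Laptm5 was lost in each of the 8 such fits and under 11 of 14 alternatives in all, that of Ctsa in 7 of the 8, and those of Igfbp5 and Helz in 2 each. By limma on log2(TPM + 1) the call of Cx3cr1 was lost (adjusted p = 0.060). In the main fit of this comparison 84 of the 528 hosts (15.9%) had an unadjusted edgeR p below 0.05, against 14.3% of all genes.

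A change in m6A enrichment was tested as the difference between groups in the IP against input ratio of a gene, with the animal as a block (edgeR quasi-likelihood test over 18300 genes). The rule asked for peaks in every animal and made no contrast between groups. Its calls rest on the same IP and input libraries as this test, however. Peaks not called in some animals were left out, so genes with a large loss or gain may be missing among the hosts. In vehicle-treated 5xFAD against wild-type mice 7 of 528 hosts rose (1.33%) and none fell, beside 0.962% and 0.0273% of all genes. The median log2 change of the hosts was −0.11, against −0.06 over all genes. Of the 528 hosts 127 (24.1%) had an unadjusted edgeR p below 0.05, against 11.7% of all genes. This share counts changes in both directions. The host genes had a median input level of 23.5 TPM, against 9.14 TPM for all protein-coding genes of at least 1 TPM. The part of level in this share was not tested. DESeq2 called 25 hosts higher (4.73%) and 2 lower (0.379%), beside 3.05% and 0.361% of the genes to which it gave an adjusted p.

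Gfap and Sgta had the largest rise. The difference between IP and input of Gfap was 0.03, 0.66, 0.72 and 0.07 (log2 CPM) in wild-type, 1.96, 1.88, 1.49 and 1.83 in vehicle and 2.01, 2.29, 2.19 and 1.91 in MS1262 mice. Every 5xFAD mouse was above every wild-type mouse. The change in vehicle mice was 1.39 ± 0.17 (log2 ± SE, edgeR adjusted p = 0.0021), in the gene whose input level also rose. The 1 shared peak of Gfap, 0.301 kb from the 5′ end, had folds of 1.83, 2.32, 3.10 and 1.56 in wild-type, 2.86, 2.63, 2.97 and 3.39 in vehicle and 2.62, 2.80, 2.75 and 2.80 in MS1262 mice. Here wild-type mouse 3 lay within the 5xFAD range.

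Sgta, a co-chaperone that hands over membrane proteins, had differences of 1.11, 1.3, 1.45 and 0.88 in wild-type, 2.35, 2.24, 2.27 and 2.41 in vehicle and 2.29, 2.60, 2.46 and 2.42 in MS1262 mice. The groups of 5xFAD mice overlapped each other and lay above the wild-type mice. The change in vehicle mice was 1.12 ± 0.14 (edgeR adjusted p = 0.0021). Sgta peak 108 (chr10:81044097-81045133), 0.627 kb from the 3′ end, had folds of 1.63, 2.78, 2.39 and 2.04 in wild-type, 4.07, 3.34, 4.49 and 3.77 in vehicle and 4.29, 5.32, 5.57 and 4.72 in MS1262 mice. At the peak, as for the whole gene, all wild-type mice were below all 5xFAD mice. Peak folds and gene ratios rest on the same IP and input libraries, here and for the hosts named next, so they are not independent.

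The other called hosts were Ckb, the brain creatine kinase (1.01 ± 0.19, edgeR adjusted p = 0.017), Arrb1, which encodes beta-arrestin 1 (0.80 ± 0.14, adjusted p = 0.011), Sfxn5, a mitochondrial carrier (0.78 ± 0.14, adjusted p = 0.014), Baiap2, an actin regulator of dendritic spines (0.75 ± 0.15, adjusted p = 0.021), and Cplx2, a complexin of synaptic vesicle release (0.64 ± 0.14, adjusted p = 0.044). At their peaks the wild-type and vehicle folds did not overlap in Ckb (1.68 to 2.21 against 2.48 to 4.50), Arrb1 (2.12 to 2.38 against 2.45 to 4.27) or Baiap2 peak 78 (2.69 to 4.63 against 4.79 to 5.21). They overlapped in Sfxn5 (2.27 to 2.69 against 1.90 to 4.93) and Cplx2 (2.27 to 2.56 against 2.42 to 5.87). Baiap2 held 3 shared peaks, of which only peak 78 is described here.

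Gfap and Sgta stayed called without each animal. By limma Gfap stayed called on log2(TPM + 1) (adjusted p = 0.035) and not on log2(TPM + 0.1) (0.075), and Sgta on neither (0.0504 and 0.11). Ckb, Arrb1, Sfxn5 and Baiap2 each lost the call in 3 of the 8 fits without 1 animal. The count of called hosts was 2 without wild-type mouse 1, wild-type mouse 4 or vehicle mouse 1, and 24 without vehicle mouse 4 (19 higher and 5 lower), the animal with the shallowest IP library. It was 6 to 8 without each of the others.

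In MS1262 against vehicle mice no host was called for m6A enrichment by edgeR or by DESeq2, which called 0.00546% of all genes each way. An unadjusted p below 0.05 was found for 3 of 528 (0.568%), against 2.37% of all genes, and 0.0% of all genes rose or fell. The median log2 change of the hosts was 0.01, against 0.05 over all genes. The smallest p values belonged to Ywhag (0.33 ± 0.14), Thtpa (0.29 ± 0.13), Pttg1ip (0.26 ± 0.12), Gfap (0.33 ± 0.17) and Dhcr7 (−0.33 ± 0.18), all at an edgeR adjusted p of 1.0. Thtpa overlaps a second expressed gene at its peak, so its reads cannot be told from that gene's.

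In MS1262 against wild-type mice 13 of 528 hosts rose (2.46%) and none fell, beside 1.22% and 0.0219% of all genes. DESeq2 called 22 higher (4.17%) and 6 lower (1.136%), beside 2.73% and 0.284% of the genes to which it gave an adjusted p. The median log2 change of the hosts by edgeR was −0.11, against −0.002 over all genes. Of the 528 hosts 115 (21.8%) had an unadjusted edgeR p below 0.05 in either direction, against 11.1% of all genes. The part of the hosts' higher input level in this share was not tested. Gfap (1.72 ± 0.17, edgeR adjusted p = 0.00021) and Sgta (1.25 ± 0.14, adjusted p = 0.00040) had the largest changes, and other called hosts were Ckb (0.98 ± 0.19), the postsynaptic scaffold Dlgap4 (0.80 ± 0.16) and Cplx2 (0.75 ± 0.14). The count was 14 without MS1262 mouse 1, and 2 without wild-type mouse 1, wild-type mouse 4 or MS1262 mouse 3. It was 3 without MS1262 mouse 2, 4 without MS1262 mouse 4, 7 without wild-type mouse 2 and 8 without wild-type mouse 3. Gfap and Sgta stayed called in each of these fits, and Ckb and Cplx2 lost the call in 4 of them and Dlgap4 in 6.

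The input level moved beside these calls. In 12 of the 13 hosts called against wild-type mice in the MS1262 group the input log2 change was below 0, down to −0.58, and in none of the 13 was it called. In vehicle mice it was below 0 in 6 of the 7 hosts, and called in Gfap, the 1 that rose. The ratio uses the same input libraries, so these 2 measures are not independent, and the part of the input in the ratio was not tested.

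**Figure D5:**
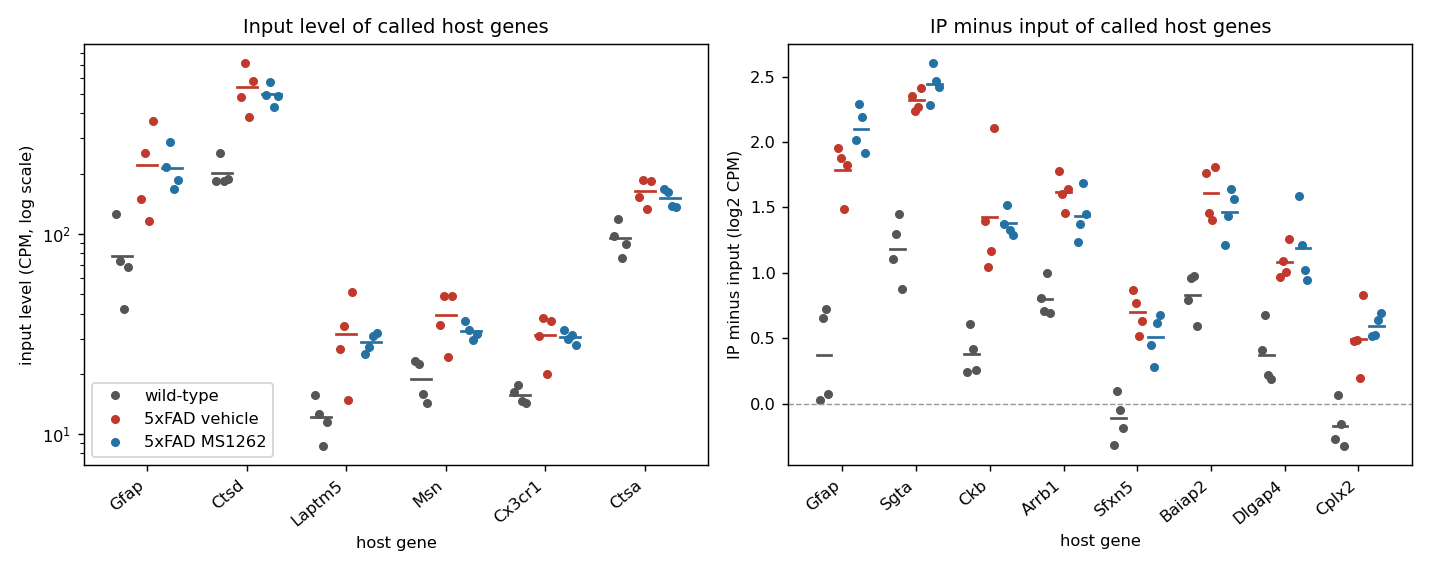
Left, input level in CPM (log axis) of the 6 host genes with the largest called rise in vehicle against wild-type mice. Right, IP minus input (log2 CPM) of the named host genes called for m6A enrichment against wild-type mice. Points are animals coloured by group and bars are group means (n = 4). Vehicle and MS1262 mice lie above wild-type mice in all 8 genes on the right without overlap, and in Gfap and Laptm5 on the left vehicle and wild-type mice overlap.

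Differences at single peaks were described from the log2 fold centred on each animal's median over the shared peaks, by whether the 4 animals of 1 group all lay above or below the 4 of another. Vehicle mice lay above wild-type mice in 27 of 806 shared peaks and below in 31. Over the 881 merged peaks found in all 8 animals 27 lay above (3.06%) and 34 below (3.86%). These 881 include the 806 shared peaks, as do the 1296 and 1074 merged peaks given next. The shares are therefore not an outside reference for the shared peaks. Without centring the counts were 36 above and 12 below, beside 4.09% and 1.48% of the 881. MS1262 mice lay above vehicle mice in 10 and below in 6, beside 1.23% and 0.54% of 1296 merged peaks, and without centring above in 0 and below in 15, beside 0.386% and 1.85%. MS1262 mice lay above wild-type mice in 33 and below in 31, beside 3.17% and 4.0% of 1074, and without centring in 26 and 15, beside 2.61% and 2.05%. The split between higher and lower depended on the centring in each pair.

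The widest such differences between vehicle and wild-type mice were in Sgta peak 108, Syngr3 peak 220 (1.89 to 2.77 in wild-type, 3.42 to 4.13 in vehicle mice) and Cyb561 peak 229 (1.91 to 2.81 against 2.81 to 5.53) upwards. Downwards they were in Glyr1 peak 218 (2.85 to 6.20 against 2.174 to 3.15 before centring), Dgkd peak 348 (2.99 to 3.82 against 1.98 to 2.67) and Nmnat2 peak 121. Syngr3 encodes a synaptic vesicle protein and Dgkd a diacylglycerol kinase. Nmnat2, the axonal enzyme of NAD synthesis, had folds of 4.46, 3.91, 5.36 and 5.27 in wild-type, 3.10, 3.94, 2.76 and 3.23 in vehicle and 2.39, 3.50, 4.06 and 3.69 in MS1262 mice. Before centring, vehicle mouse 2 overlapped wild-type mouse 2 at this peak.

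Against wild-type mice, MS1262 mice lay highest in Ncdn peak 110, Sgta peak 108 and Cplx1 peak 213. Ncdn, which encodes neurochondrin, had folds of 1.70, 2.171, 3.60 and 2.22 in wild-type, 4.49, 3.26, 3.96 and 3.82 in vehicle and 5.99, 6.78, 5.04 and 4.30 in MS1262 mice. Cplx1, a complexin like Cplx2, had folds of 1.48, 1.79, 3.26 and 1.94 in wild-type, 3.82, 3.03, 2.52 and 3.93 in vehicle and 3.25, 5.84, 4.10 and 3.89 in MS1262 mice. In both peaks wild-type mouse 3 was the highest of its group, and in Cplx1 it overlapped MS1262 mouse 1 before centring. MS1262 mice lay lowest in Rab5b peak 423 (3.52, 3.52, 3.62 and 4.16 in wild-type, 2.68, 2.58, 2.37 and 2.78 in vehicle, 2.03, 2.00, 2.40 and 2.60 in MS1262 mice), Smarcal1 peak 496 and Rnf130 peak 619. Rab5b encodes a GTPase of early endosomes.

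Between MS1262 and vehicle mice the widest differences were in Cnp, a myelin enzyme (2.59 to 3.20 in vehicle, 3.09 to 4.82 in MS1262 mice), Slc35a4 (2.30 to 2.94 against 2.36 to 4.51) and Acp2 (1.94 to 2.89 against 2.56 to 4.04) upwards, and in Kif3c (3.23 to 3.72 against 1.82 to 2.91), Smarcal1 (2.06 to 2.87 against 1.58 to 2.102) and Tro (4.10 to 4.96 against 2.98 to 4.04) downwards. The ranges of Cnp, Slc35a4, Acp2 and Smarcal1 overlapped before centring. These peaks were picked as the extremes of the 16 of 806 whose groups did not overlap, and none was tested. Groups of 4 separate in some peaks by the order of the animals alone, so no effect of treatment is read from them. With a median fold lower in MS1262 mouse 1 than in the other 11, centring raised that animal's values.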

How the data were processed

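Per the labels, poly(A) RNA of each hippocampus (150 ng, with 10% kept as input) was precipitated with 3 µg of anti-m6A antibody. The submitters' processing notes name MACS2 2.1.2, Salmon 1.4.0, STAR 2.7.6a, Trimmomatic 0.32, SAMtools 1.10 and bcl2fastq 2.17.1.14, and the build GRCm38 (mm10). Each animal had its own peak call from its IP and input libraries, per the file headers, at a q cutoff of 0.5, with tags extended to 200 bases and the effective genome set to 100000000 bases. The small genome size and the loose cutoff affect which weak peaks are listed. The deposited peak lists give pileup signal, fold enrichment over local background, and p-values and q-values as −log10. The authors deposited estimated counts per gene, of which 22.1% of values above 0 were not whole, and TPM.

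The members and the gene lists were chosen with earlier results of these data known. Estimated counts were rounded, filtered at a minimum count of 10 and tested with edgeR 4.0.16 in R 4.3.3 (TMM, quasi-likelihood test, Benjamini-Hochberg adjustment over all genes, threshold 0.05). All 12 animals entered each fit, so the groups share 1 estimate of spread (9 residual degrees of freedom). Expression used input libraries, and m6A enrichment the interaction of IP and group with the animal as a block. The input and IP libraries pair by animal: in 12 of 12 animals the input correlated best with its own IP. Nothing in the labels says that replicate numbers pair animals across groups (r of −0.09 to 0.05). The fits were tested on simulated data. Alternatives were DESeq2 1.42.0, limma 3.58.1 on log2(TPM + 1) and log2(TPM + 0.1), other scaling and filters, and each animal left out.

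Named peaks were the 10 highest and 5 lowest by median fold, the 5 highest by pileup, the 5 most and least even, the 5 longest, those of the 5 genes with most shared peaks, and those at the edge of the rule. Named host genes were the 6 largest called changes each way per contrast, or the 5 smallest p where fewer than 5 were called, with up to 4 per gene list and a fixed set of disease, m6A and synaptic genes. The peaks with the widest differences between groups that did not overlap were also named. Python 3.11.15, pandas 2.3.3 and numpy 2.4.6 were used for peaks. The labels name no batch. Some genes that met these rules, and 1 sequence, are not reported here.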

Additional observations from a re-analysis of the deposited data

Results flagged for a closer look

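In groups of 4 animals, 1 animal lay far from the other 3 in 15 of 255 groups examined (5.88%), and chance gives about 5%, or 1 in 20, for items not picked on their values. Many of these peaks and genes were named for their spread or their group differences, so 5% is not a strict reference for them. Vehicle mouse 4, with the shallowest IP library, was the animal set apart by its high fold in Kif5a peak 7 (8.72), Bcl2l1 peak 27 (9.33), Actb peak 795 (3.21), Pea15a peak 802 (2.35) and Ogdh peak 806 (3.58). MS1262 mouse 1 was set apart by a low fold in Sptan1 peak 3 (4.95), Cnp peak 243 (3.09) and Map2 peak 431 (1.76), and by its median fold over the shared peaks (2.22). Among wild-type mice, mouse 3 was high in Camk2a peak 157 (5.18), mouse 4 was high in Rab5b peak 423 (4.16), and mouse 2 was low in Pde2a peak 226 (1.51). In input, Ctsd was high in wild-type mouse 2 (253 CPM), Fam131a low in MS1262 mouse 2 (49.0 CPM) and Igfbp5 low in vehicle mouse 3 (76.6 CPM). The part of depth in these values was not tested.

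The difference between IP and input itself differed between groups by edgeR's interaction test. In vehicle against wild-type mice the log2 differences were 1.39 for Gfap, 1.12 for Sgta, 1.01 for Ckb, 0.80 for Arrb1, 0.78 for Sfxn5 and 0.75 for Baiap2. In MS1262 against wild-type mice, which uses the same wild-type libraries, they were 1.72 for Gfap, 1.25 for Sgta, 0.98 for Ckb, 0.80 for Dlgap4 and 0.75 for Cplx2.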

How the results depend on the processing

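The number of shared peaks was 328 when a fold of at least 2 was required in every animal, 346 when each peak was cut to 100 bases on each side of its strongest summit, and 806 to 979 with 1 animal left out. The median fold was 2.27 by the subpeak with the highest pileup and 2.27 by the mean over subpeaks, and 2.64 to 2.72 with 1 animal left out. Peaks whose groups did not overlap numbered 69 to 127 for vehicle against wild-type, 28 to 50 for MS1262 against vehicle and 76 to 142 for MS1262 against wild-type with 1 animal left out, where fewer animals overlap less by construction. By pileup MS1262 against vehicle gave 26, and without centring MS1262 against wild-type gave 41.

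Hosts called in expression for vehicle against wild-type were 18 by DESeq2, 4 by limma on log2(TPM + 1), 6 on log2(TPM + 0.1), and 2 to 12 with 1 animal left out. On the TPM scales the median of all genes moved to −0.09 and −0.14, and the calls were 2 higher and 2 lower, and 3 higher and 3 lower. For MS1262 against wild-type they were 21, 1, 2, and 3 to 6 in the same order. Hosts called for m6A enrichment for vehicle against wild-type were 27 without the low-count filter, 27 by DESeq2, 2 and 0 by limma on the 2 TPM scales, and 2 to 24 with 1 animal left out. For MS1262 against wild-type they were 26, 28, 1, 0, and 2 to 14. The causes were not tested. MS1262 against vehicle gave 0 called hosts for both measures under each alternative run.

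With the replicate number as a block, expression gave 6 hosts for vehicle against wild-type, 7 for MS1262 against wild-type and 0 for MS1262 against vehicle, and the numbers share no more than a number. Without the block of the animal, which pairs input and IP, m6A enrichment gave 0 in each comparison. Of 476 values of named host genes under alternatives 356 stayed on their side of the threshold, 120 lost their call and 0 changed direction. The 356 include all values of the hosts named for MS1262 against vehicle. None of those hosts was called in the main fit, so they had no call to lose.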
